A study of Ambystoma mexicanum with 2 samples.

Results

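The miR-30 family was followed in the small RNA of regenerating axolotl tail. Its members were taken as the mirBase 21 entries of any species whose family label in the deposited table is miR-30 followed by at most 1 letter. This rule found 178 of the 9277 entries with reads, under 6 of 4563 labels: miR-30a with 47 entries, miR-30d with 38, miR-30e with 37, miR-30c with 32, miR-30b with 23 and miR-30f with 1. There were 2 libraries. The control was uninjured tail that had never regenerated, and the blastema was tail tissue at 3 days post injury, when the mound of undifferentiated cells that will rebuild the tail has formed. Both were pools of tail tissue of mature Ambystoma mexicanum, with no transgene or drug named in the labels. The sources give 20 animals without saying whether these went into each library or into both together. Each library mixes all cell types of the tail, and differences between animals cannot be seen.

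MicroRNAs are short RNAs that guide Argonaute proteins to messenger RNAs through the seed, the bases near their 5′ end, and so lower the output of the target. A hairpin precursor gives a 5p and a 3p arm, and either can be loaded. In mammals the 5p arms of miR-30 share a seed, and miR-30 is known in human and mouse for holding epithelial cells in a differentiated state through targets such as SNAI1, for limiting the matrix gene CTGF in the heart, and for action on the Notch ligand DLL4 in endothelium. None of these targets was measured here.

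The mirBase sequences themselves were not used here, but axolotl sequences close to miR-30 can be read directly from the table of reads that did not map. The authors grouped unmapped sequences into families named miR-pn, and 17 families have a partial homology to a miR-30 listed. The most common sequences of the first 3 are shown because they share a stretch of 18 bases, in capitals, and differ in where they begin. Their opening, ctttcag in the longest, is that of the human 3p arms of miR-30a, miR-30d and miR-30e.
Amex-miR-pn2873: ctttCAGTCGGATGCTTACAGCa
Amex-miR-pn5704: ttCAGTCGGATGCTTACAGCgt
Amex-miR-pn2447: CAGTCGGATGCTTACAGCgg
The next 3 are the members with the most reads of families with most of their reads in the control. Capitals mark bases that differ from Amex-miR-pn2873, counted from 1 at its 5′ end. These are A6C, A12C, A18C and A20C in Amex-miR-pn3713, A6C and A18C in Amex-miR-pn3715, and A6C, A12C, C15T, A18G and A20C in Amex-miR-pn3716.
Amex-miR-pn3713: ctttcCgtcggCtgcttCcCgc
Amex-miR-pn3715: ctttcCgtcggatgcttCcagc
Amex-miR-pn3716: ctttcCgtcggCtgTttGcCgc
The last 3 begin with the 8 bases in capitals. Their first 5 bases are the end of the seed GUAAACA of the mammalian 5p arms, so these sequences lack the first bases of a full 5p arm.
Amex-miR-pn44: AAACATCCccgactggaagctt
Amex-miR-pn45: AAACATCCtcgactggaagctat
Amex-miR-pn5885: AAACATCCtacactcagcta

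Depth set how finely these values could be read. The deposited counts sum to 12613931 reads in the control against 9952885 blastema reads, known entries and unmapped sequences together, and all levels are reads for each 1000000 reads of these totals (RPM). With 1 library per condition neither a replicate error nor a test of the condition could be had. Intervals are 95% intervals for counting error only (Wilson for a level or a share, Poisson for a log2 ratio), and reads copied by PCR are not independent molecules. A count of 0 allowed up to 0.238 RPM in the control against 0.301 in the blastema. The totals also differed in what filled them. The 16 labels of the muscle microRNAs miR-1, miR-206, miR-133, miR-499 and miR-208 took 67.4% of control reads against 14.3% of blastema reads, and 14 of them had an at least 2-fold lower share in the blastema, as had 1.84% of all known labels with at least 10 reads. Higher shares were common, since 84.3% of the 3090 such labels were at least 2-fold higher, and the next counts are to be read against that. All 14 labels of the epithelial microRNAs (miR-141, miR-200, miR-203, miR-205 and miR-429) were called so, with a summed level of 2214 and 24314 RPM. So were 8 of 9 leukocyte labels (266 and 2624 RPM), all 3 red blood cell labels with at least 10 reads (16.6 and 103 RPM, with miR-486 at 0 in both libraries) and 11 of 15 neural labels, a smaller share than among all known labels (1307 and 3287 RPM). The part of these shifts in the miR-30 values was not tested, and a change in the number of cells of a type cannot be told apart from a change in the RNA of each cell.

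Summed over its labels, miR-30 had 29017 control reads and 69110 blastema reads. These are 2300.4 RPM (2274 to 2327) and 6944 RPM (6892 to 6995). The share was thus 3.02-fold higher in the blastema, a log2 ratio of 1.59 (1.57 to 1.61), but the direction depended on the total, since it was 0.20 with the muscle labels left out of the total and -0.35 with edgeR's TMM factors. When labels with the same number were summed, miR-30 had rank 12 by reads in the control but 13 in the blastema. Over the 197 known labels with at least 1000 reads the median log2 ratio was 2.08, and miR-30 was 0.49 below this median. The scaling cannot alter this distance, since a change of total moves all log2 ratios by one amount. Of those labels 34.0% had a lower log2 ratio than summed miR-30. The sum is weighted by reads, and its arms lay on either side of the median. The 5p entries, at 2.23, were above it and the 3p entries, at 1.37, below it.

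On this total each miR-30 label had a higher share in the blastema, though miR-30a, miR-30c and miR-30e turned with TMM, and the order of the labels by level was the same in both libraries. miR-30e was the most abundant, with 17219 control reads (1365 RPM) and 34328 blastema reads (3449 RPM). miR-30a followed with 8508 reads (674 RPM) and 24354 reads (2447 RPM). miR-30d had 2265 control reads, which is 179.6 RPM, and 7235 blastema reads, 727 RPM. The other 3 labels were rare. miR-30b went from 580 to 2023 reads (46.0 to 203.3 RPM) and miR-30c from 435 to 1114 (34.5 to 112 RPM). miR-30f, which rests on the single goat entry chi-miR-30f-3p, had 10 and 56 reads. Within each library, the counting intervals of neighbours in this order did not overlap.

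**Figure D1:**
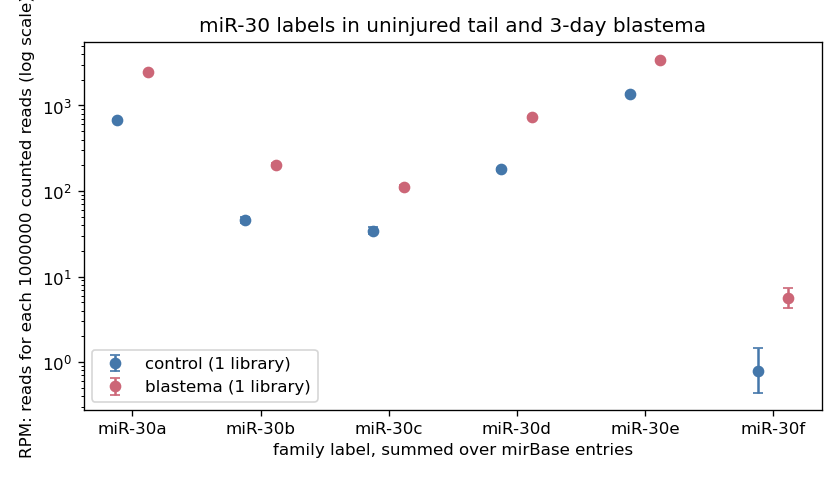
RPM, reads for each 1000000 counted reads (log scale), of the 6 miR-30 labels in the control and blastema libraries, 1 library each, with Wilson 95% intervals that are mostly smaller than the points. miR-30e is highest in both libraries and each label is higher in the blastema on this scale, from 1365 to 3449 RPM for miR-30e, while with TMM factors miR-30a, miR-30c and miR-30e turn to the lower side.

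On the log2 scale the ratios of blastema over control ran from 1.34 (1.31 to 1.36) for miR-30e to 2.77 (1.82 to 3.72) for miR-30f. miR-30c had 1.70 (1.54 to 1.86), miR-30a 1.86 (1.82 to 1.89), miR-30d 2.02 (1.95 to 2.09) and miR-30b 2.14 (2.01 to 2.28). All 6 labels were at least 2-fold higher, as were 84.3% of the 3090 known labels with at least 10 reads, and none was at least 2-fold lower, against 1.84% of known labels. With TMM the ratio fell below 0 for miR-30a, miR-30c and miR-30e, and with the muscle labels left out of the total for miR-30e. Since their ratios were unequal, the makeup of the family by label, with reads taken as the entries list them, differed between the libraries whatever the total. miR-30e supplied 59.3% (58.8 to 59.9) of the miR-30 reads in the control but 49.7% (49.3 to 50.04) in the blastema. The share of miR-30a was 29.3% in the control against 35.2% in the blastema, and that of miR-30d was 7.81% and 10.5%. These shares mix the arms, which are given below, and labels may share reads. The 5p entries alone had nearly the same log2 ratio in miR-30e (2.30) and miR-30a (2.29), and the 3p entries had 1.31 and 1.52. Nearly all arm-named reads of miR-30e were 3p, so its smaller share in the blastema is not apart from the difference between the arms.

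**Figure D2:**
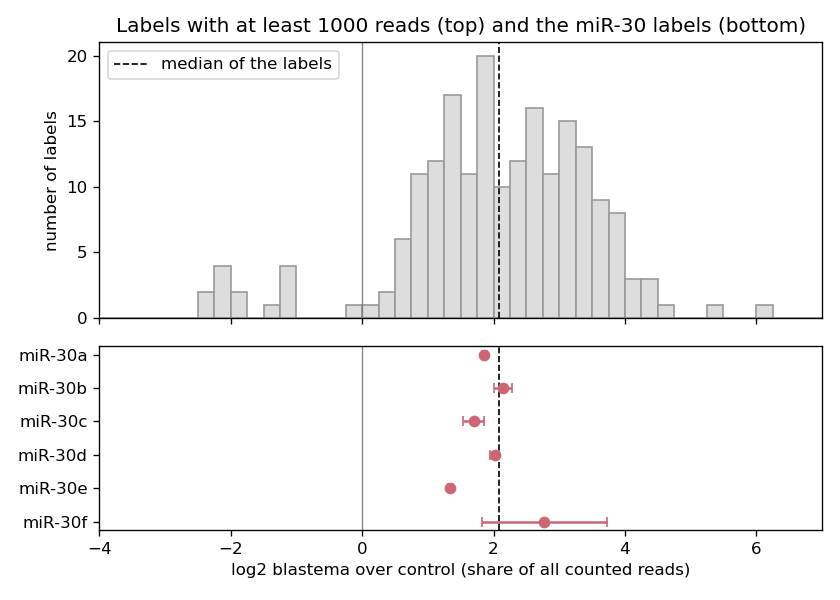
Top, the number of known labels with at least 1000 reads by log2 ratio of blastema over control, on shares of all counted reads. Bottom, the 6 miR-30 labels with their counting-error intervals. Dashed lines mark the median of the labels, 2.08, and miR-30e, miR-30c, miR-30a and miR-30d lie below it. With only their tetrapod entries, miR-30c (2.19) and miR-30d (2.10) would lie above this line. TMM factors would move every value by -1.94.

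The arms of the hairpin differed. Entries named 3p, 54 in number, held 19451 control reads and 39732 blastema reads. The 70 entries named 5p held 5065 control reads and 18754 blastema reads. In both libraries 3p had more reads than 5p, with 3.84 reads of 3p for each of 5p in the control but 2.12 in the blastema. Of the arm-named reads, 3p thus held 79.3% (78.8 to 79.8) in the control against 67.9% (67.6 to 68.3) in the blastema. The log2 ratio was 2.23 (2.19 to 2.28) for the 5p entries and 1.37 (1.35 to 1.40) for the 3p entries, which turned to -0.0217 with the muscle labels left out of the total and to -0.57 with TMM. The difference between the arms does not depend on the total, and the 5p to 3p ratio was 1.81-fold larger in the blastema, a log2 change of 0.86 (0.81 to 0.91). The paper describes the mapped reads as of a narrow range of lengths. Whether this range takes in both arms alike was not tested.

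The labels differed widely in which arm prevailed. For miR-30e, 3p entries held 14093 of the arm-named control reads and 5p entries only 255. In the blastema these were 27541 and 990, so that 3p made up 98.2% of them in the control against 96.5%. For miR-30a, with reads taken as its entries list them, the arms were near balance and crossed over. Its 3p entries had 4602 control reads against 3198 for 5p, and 10434 blastema reads against 12334 for 5p. The 3p share of miR-30a was thus 59.0% (57.9 to 60.1) in the control against 45.8% (45.2 to 46.5) in the blastema. The single entry tgu-miR-30a-3p held 1260 of the 4602 control 3p reads and 2459 of the 10434 blastema 3p reads. This entry is 1 of a set of 9 with nearly the same counts, described below, of which 8 carry the label miR-30e. Without this entry the arms of miR-30a would be near equal in the control. Most of the 3p excess of miR-30a there thus rests on reads that may be of miR-30e. The counting intervals leave this out, and it was not tested. In miR-30b and miR-30d the 5p entries prevailed, with 3p shares of 29.1% and 24.1% in the control and of 20.7% and 17.3% in the blastema. miR-30c had 3p shares of 66.0% and 63.0%, but these rest on the single entry ssa-miR-30c-3p, whose counts are given below. Without this entry the arm that prevailed would reverse. The 5p entries of miR-30c, with 123 control and 327 blastema reads, would then outnumber its remaining 3p entries in each library.

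In each of these 5 labels, with reads taken as the entries list them, 5p gained on 3p in the blastema. The labels may share reads, however, and are not separate measurements. The entry ssa-miR-30c-3p held 231 of the 239 control and 506 of the 556 blastema 3p reads of miR-30c. For miR-30d, ssa-miR-30d-3p held 253 of 354 and 474 of 765. Both belong to a set of 18 3p entries of 4 labels with nearly the same counts, described below. Most of this set carries the label miR-30a. Without ssa-miR-30c-3p, the few 3p reads left in miR-30c would gain on its 5p reads in the blastema. Without ssa-miR-30d-3p, the gain of 5p in miR-30d would be smaller. The counting intervals do not take in that reads may be shared. The log2 change of the 5p to 3p ratio was 0.99 (0.79 to 1.19) for miR-30e, 0.77 (0.69 to 0.84) for miR-30a, 0.65 (0.34 to 0.97) for miR-30b and 0.60 (0.39 to 0.80) for miR-30d. For miR-30c it was 0.19, and its interval of -0.18 to 0.56 includes 0. The log2 ratios of the 5p entries were close to each other in miR-30a (2.29), miR-30b (2.31) and miR-30e (2.30), with 2.05 in miR-30d and 1.75 in miR-30c. The 3p entries of the same labels lay between 1.31 and 1.65. Among the 51 other labels with at least 100 reads on each named arm, the change of 5p over 3p was above 0 for 29, with a median of 0.17 and quartiles of -0.52 and 0.74. Of them, 78.4% had a smaller change than miR-30 summed over its labels. Taken label by label, the 5 miR-30 labels had a median change of 0.65, which lies within those quartiles. These shares describe the 2 libraries, and no test of the arms against other labels was made.

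**Figure D3:**
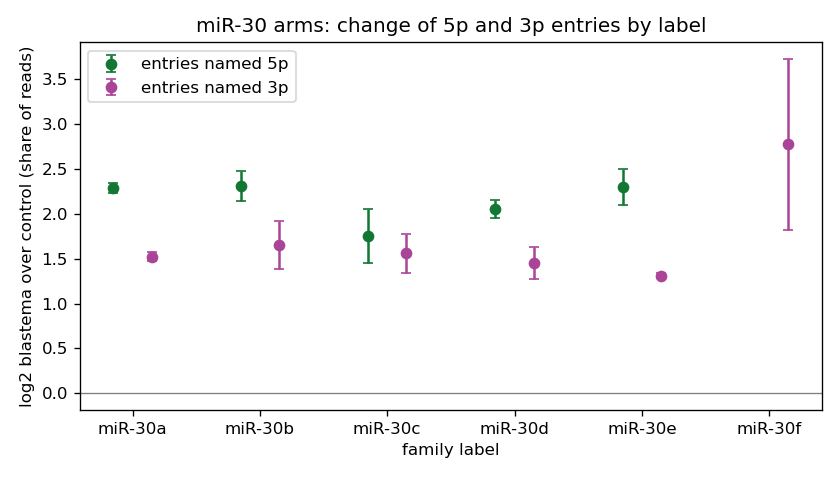
Log2 ratio of blastema over control, on shares of all counted reads, for the 5p and 3p entries of each label, with counting-error intervals. The 5p point lies above the 3p point in each of the 5 labels that have both arms, by 0.19 for miR-30c and 0.99 for miR-30e. These labels may share reads, and miR-30f has a 3p entry only. The 3p point of miR-30c rests almost wholly on ssa-miR-30c-3p, without which its 5p point would not lie above 3p. TMM factors would move all points down together by 1.94, which puts the 3p points of miR-30a to miR-30e and the 5p point of miR-30c below 0.

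Single entries showed the same split. Of the 178 entries, 145 had 10 or more reads when both libraries were added, and 135 of these, or 93.1%, were at least 2-fold higher in the blastema on the main total, against 79.3% of the 6854 entries of any microRNA with that many reads. None was at least 2-fold lower, against 4.9% of all such entries. For the pig entry ssc-miR-30e-3p, the one with the most reads, 3597 control and 6994 blastema reads gave a log2 ratio of 1.30 (1.24 to 1.36). The king cobra entry oha-miR-30e-3p had 2448 and 4852 reads (1.33), and the platypus entry oan-miR-30e-3p 1337 and 2394 (1.18). On the 5p side, oan-miR-30a-5p had 725 and 2799 reads (2.29), oha-miR-30a-5p 713 and 2315 (2.04), and the zebra finch entry tgu-miR-30d-5p 554 and 1837 (2.07). The most abundant 5p entry of miR-30b was that of Atlantic salmon, ssa-miR-30b-5p, with 247 and 888 reads (2.19). Among entries with at least 100 reads, the 33 of the 5p arm had a median log2 ratio of 2.29 with a range of 1.91 to 2.94. The 33 of the 3p arm had a median of 1.51 and ran from 1.13 to 2.06. These entries are not replicates, since many had nearly the same counts and may draw on one pool of reads. Their medians and ranges therefore restate the difference between the summed arms.

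**Figure D4:**
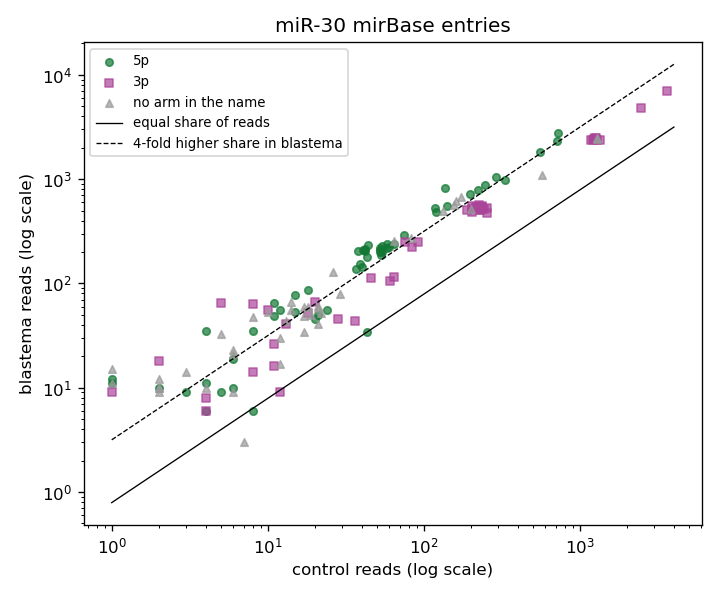
Blastema reads against control reads (both log scale) for each miR-30 entry with at least 10 reads over both libraries and a read in each, by the arm its name gives. The solid line is an equal share of reads and the dashed line a 4-fold higher share in the blastema. Abundant 5p entries lie near or above the dashed line and abundant 3p entries between the lines. Scaling with TMM would raise the line of equal share by 1.94 on the log2 scale, above most abundant 3p entries.

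Entries of different species and labels often had nearly the same counts. A set of 9 entries had between 1182 and 1337 control reads and between 2354 and 2475 blastema reads. The set, chosen for its closeness after the values were seen, holds 6 miR-30e-3p entries, tgu-miR-30a-3p, which carries the label miR-30a, and cfa-miR-30e and efu-miR-30e of dog and bat, whose names give no arm. Another 18 entries named 3p had 188 to 254 control reads and 474 to 563 blastema reads, and these belong to 4 labels. How a read that matched several entries equally was counted is not given in the sources used here. The labels are therefore not read here as separate axolotl genes, since a level of miR-30a may hold reads of miR-30e.

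The western clawed frog was the only amphibian among the 35 species prefixes of these entries. Its 6 entries held 94 control reads and 339 blastema reads. xtr-miR-30a-5p had 41 and 207 reads, a log2 ratio of 2.66 (2.18 to 3.14), and xtr-miR-30a-3p had 28 and 46 reads, a ratio of 1.05 (0.38 to 1.72), and these intervals do not overlap. xtr-miR-30d had 17 and 60 reads, and the other 3 frog entries had at most 15 reads over both libraries. Entries that went against the family were few and shallow. A lower blastema share was found for 7 entries, of which 3 had at least 10 reads over both libraries, oha-miR-30b-3p (12 and 9 reads), ppy-miR-30c (7 and 3) and ssa-miR-30d-5p (8 and 6). The other 4, all of miR-30c, had 7 reads each and log2 ratios from -0.80 to -0.021, the lowest for hsa-miR-30c-5p and ola-miR-30c (5 and 2 reads each). For all 7, the interval of the log2 ratio includes 0. The lamprey entry pma-miR-30c-5p, with 43 and 34 reads, had a log2 ratio of 0.0074 (-0.64 to 0.65), while ssa-miR-30c-5p, with 39 and 152 reads, had 2.29 (1.79 to 2.80). The chicken entry gga-miR-30c-1-3p had no control reads but 20 blastema reads. With 3 counts in place of the 0 its blastema share was 8.45-fold higher, and the interval of its log2 ratio was 1.65 to 9.75. Another 7 entries had no control read and at most 8 blastema reads, and no entry lacked blastema reads.

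The 17 unmapped families with a miR-30 homology added 2062 control and 3610 blastema reads in 135 sequences, 7.11% and 5.22% of what the known entries held. All their counts are even numbers, as are all counts of the 59811 unmapped sequences, while 75 control and 84 blastema counts of the known miR-30 entries are odd. Intervals of unmapped sequences are therefore given with each count divided by 2. The 7.11% and 5.22% use the counts as deposited, as do the library totals. Both would be too large if unmapped reads were counted repeatedly. An at least 2-fold higher share in the blastema was found for 9 of the 17 families and an at least 2-fold lower one for 5, against 75.1% and 16.3% of the 6846 unmapped families with at least 10 reads. Amex-miR-pn2873 was the largest, with 750 control reads and 1256 blastema reads over 40 sequences and a log2 ratio of 1.09 (0.90 to 1.27). Amex-miR-pn5704 had 316 and 1240 reads (2.31, 2.06 to 2.56), and Amex-miR-pn2447 had 96 and 394 reads (2.37, 1.91 to 2.82). Families opening with AAACATCC were small, with 64 and 214 reads for Amex-miR-pn44 (2.08), 30 and 52 for Amex-miR-pn45 (1.13), and 0 and 12 for Amex-miR-pn5885. With its reads divided by 2 and 3 counts in place of the 0, Amex-miR-pn5885 was 2.53-fold higher in the blastema. The interval of its log2 ratio (-0.11 to 8.19) includes 0. Over all unmapped sequences, 20 of 59811, or 0.0334%, held AAACATCC on the strand as read, 19 of them at their first base, and these had 102 control and 300 blastema reads.

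Among the unmapped 3p-like sequences, the 5′ start differed between the libraries. The 18 bases shared by the first 3 sequences printed above occurred in 32 unmapped sequences, 0.0535% of all, with 846 control reads and 2414 blastema reads. Sequences with 4 bases before this stretch, the start of Amex-miR-pn2873, made up 51.3% (46.5 to 56.03) of these reads in the control but 31.9% (29.3 to 34.6) in the blastema. Those with 2 bases before it, as in Amex-miR-pn5704, had 34.5% (30.1 to 39.2) and 43.7% (41.0 to 46.6). Those with 1 base had 2.60% (1.46 to 4.60) and 7.62% (6.26 to 9.26), and those that open with the stretch itself, as Amex-miR-pn2447, had 11.6% (8.87 to 14.99) and 16.7% (14.7 to 18.9). Sequences that did map are counted under their entries and cannot be seen here, so these shares are of the unmapped remainder. Only 2 of the 32 sequences end with the stretch, and the others carry bases after it. The set is therefore one of sequences with particular 3′ ends, and the part of a change in 3′ ends in these shares was not tested.

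Sequences that differ from Amex-miR-pn2873 only by A-to-C changes went the opposite way. There were 16 of them, with 1 to 4 such changes within the first 22 bases, and they had 416 control reads and 6 blastema reads. Each had more control than blastema reads, and 13 had no blastema read. The log2 ratio of their sum was -5.66 (-7.08 to -4.03). In contrast, 118 unmapped sequences with 1 to 6 substitutions of other or mixed kinds had 806 and 868 reads, a log2 ratio of 0.45 (0.25 to 0.64). Of these, 53 had more control than blastema reads and 19 had no blastema read. Sequences with few reads in both libraries are not listed, so one with no blastema read is listed only through its control reads. The A-to-C class was also chosen after the values were seen, so its ratio describes the class and is not a test. The mixed kinds include A-to-C changes beside others, as in the sequence of Amex-miR-pn3716 printed above, so the 2 sets are not cleanly divided by A-to-C change. The A-to-C changes account for most reads of Amex-miR-pn3713 (388 control and 4 blastema reads, a log2 ratio of -6.09 with an interval of -7.74 to -4.14) and Amex-miR-pn3715 (88 and 8 reads). In Amex-miR-pn3713 the sequence printed above, with 90 control reads and no blastema read, outnumbered the one listed as the most common, which had 30 and 2. Amex-miR-pn3716 had 38 control reads and 0 in the blastema. With its reads divided by 2 and 3 counts in place of the 0, its blastema share was 4.997-fold lower. The interval of its log2 ratio was -8.99 to -0.89. The cause of these changes was not tested.

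**Figure D5:**
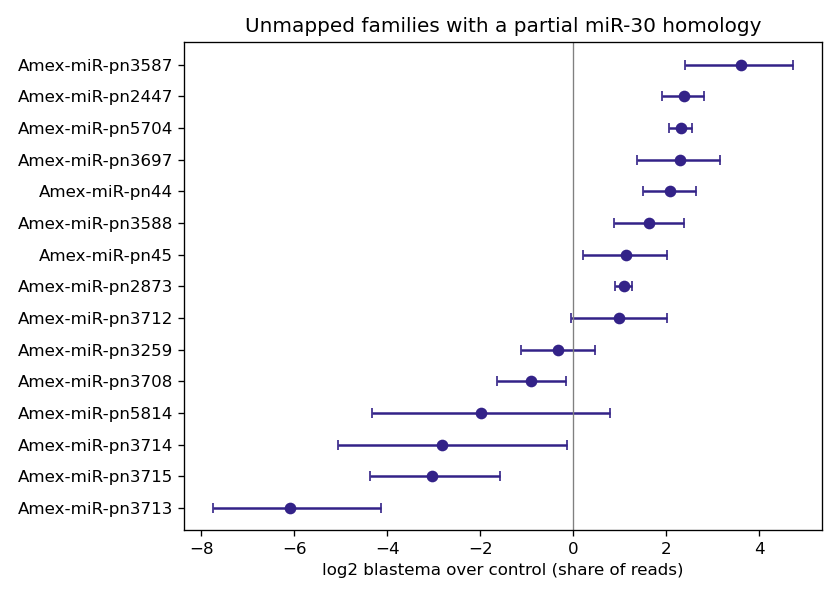
Log2 ratio of blastema over control, on shares of all counted reads, for the 15 unmapped families with a partial miR-30 homology and reads in both libraries, with counting-error intervals from counts divided by 2. Amex-miR-pn5704 and Amex-miR-pn2447 lie at 2.31 and 2.37, and Amex-miR-pn3713 lies at -6.09. TMM factors would move every point by -1.94, which takes the points between 0 and 1.94, Amex-miR-pn2873 (1.09) among them, below 0.

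The known labels with at least 1000 reads whose log2 ratio was nearest to that of summed miR-30 were miR-135a (1.64), miR-1261 (1.64), miR-9a (1.54), miR-124b (1.54) and miR-455 (1.53). Each lay within 0.0596 of miR-30, and likeness was measured on 1 ratio from 2 libraries.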

How the data were processed

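Small RNA of a control and a blastema library was analysed from 2 deposited tables. The authors trimmed reads with ShortRead, mapped them to mirBase 21 with Bowtie 1.1.2 allowing 2 mismatches, and deposited raw read counts per mirBase entry and per unmapped sequence, without normalization. The mapped reads are described as of a narrow range of lengths, so longer or shorter forms of either arm may be missing. They also clustered unmapped sequences above a minimum of reads in either library, at a Levenshtein distance of 4. Another 5 columns, which hold the authors' normalized values, their log2 and the log2 fold change between the libraries, were not used. No stricter rule for reads with several matches is given in the sources used here, and such reads can be split over species and labels.

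Counts were summed by label and by the arm in the entry name, and divided by the library total of known and unmapped reads. Log2 ratios used 0.5 read added to each count. Fold calls (2-fold) used at least 10 reads over both libraries. Samples were grouped by title. With 1 library per condition, no test or p-value was computed. The log2 intervals were tested only on simulated independent Poisson counts, which is what they assume. The simulation held no PCR copies, shared reads or differences between animals, so it cannot show how the intervals perform on these data. Alternatives were 4 other totals, 5 reads added, 4-fold, other minimums of reads, the top entry, tetrapod entries, and the arm of unnamed entries. Counting the unnamed arm as 3p, leaving out miR-30e and dividing counts by 2 were chosen after seeing the data. So were the sequence stretches searched for and the A-to-C class. The members and lists were chosen with earlier results of these data known. Named entries were those with the most reads by label and arm, and others where stated. Named unmapped families were those with a miR-30 in their listed homology. Python 3.11.15, pandas 2.3.3, SciPy 1.17.1, R 4.3.3 and edgeR 4.0.16 (TMM factors only) were used.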

Additional observations from a re-analysis of the deposited data

How the results depend on the processing

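The total used for scaling moved every log2 ratio by one amount: 0.19 with known reads only, -0.62 with the sequencing depth the study states, -1.39 without the muscle labels and -1.94 with TMM. In this order, summed miR-30 had 1.78, 0.97, 0.20 and -0.35, the 5p entries 2.42, 1.61, 0.84 and 0.29, the 3p entries 1.56, 0.75, -0.0217 and -0.57, and entries with no arm in their name 1.77, 0.96, 0.19 and -0.36. With TMM, miR-30a (-0.084), miR-30c (-0.25) and miR-30e (-0.61) also turned, and miR-30e did so without the muscle labels (-0.057). Labels at least 2-fold higher fell from 6 to 1 without the muscle labels (46.7% of all known labels) and to 0 with TMM (30.7%), and to 3 at 4-fold (60.3%). Without the miR-30e entries the summed ratio was 1.90. With entries that name no arm counted as 5p, 3p had 67.0% of control and 57.5% of blastema reads, and the log2 change of 5p over 3p was 0.59. With them counted as 3p the shares were 82.5% and 72.9%. Adding 5 reads changed no direction. With only the entry with the most reads in each label, miR-30e had 1.30, miR-30a 1.31, miR-30c 1.47, miR-30d 2.07 and miR-30b 2.19. With tetrapod entries only, miR-30e had 1.33, miR-30a 1.85, miR-30c 2.19, miR-30d 2.10 and miR-30b 2.24. The order of miR-30a, miR-30c and miR-30d by ratio thus depended on the entries taken. The entries with the most reads are also of different arms. They are 3p for miR-30e, miR-30a and miR-30c but 5p for miR-30d and miR-30b. No paired analysis was possible because each condition has 1 library, and for the same reason no library could be left out. Depth limits miR-30f, the rare entries and the small unmapped families.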
